A study of Mus musculus with 16 samples.

Results

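Control organoids from the proximal and the distal mouse colon were compared after withdrawal of Wnt factors, across all genes. The members are the 4 libraries that the sample titles name as Scramble-sgRNA in WENR-minus medium, 2 proximal and 2 distal, of 16 libraries in the series. Scramble-sgRNA organoids carried lentiviral Cas9 with a guide without a target gene, and they were the controls of Cdx2-sgRNA organoids. WENR-plus medium holds Wnt3a, EGF, Noggin and R-spondin 1, and WENR-minus medium lacks these factors. The other libraries are Scramble-sgRNA organoids in WENR-plus medium, also 2 for each region, and Cdx2-sgRNA organoids of both regions in both media. All came from female mice aged 8 weeks that were heterozygous for a Cre-activatable Braf allele and for a Cre-activatable tdTomato reporter, so this genotype is shared by every group, and no Cre step is described for the RNA libraries. The replicates came from 2 mice. After 4 months of culture, 2 days in WENR-plus medium preceded 3 days in the final medium. RNA was read from whole organoids, so fewer cells of a type and less RNA per cell cannot be told apart.

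The proximal colon receives fluid content from the caecum, and the distal colon dries and compacts it. Absorption of sodium, chloride and water by surface colonocytes is in part under the control of aldosterone, above all in the distal colon. Position along the gut is encoded by the Hox genes, whose order on the chromosome follows the order of their domains along the body axis. Wnt factors hold crypt cells in a dividing, undifferentiated state, and their removal lets colonocytes mature.

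Total estimated counts were 16832851 and 18922143 in the proximal and 17094021 and 17436165 in the distal libraries. Mitochondrial ribosomal RNA took 17.7 and 17.9% of the proximal and 24.3 and 21.5% of the distal counts, and its part in the differences was not tested. Log2 CPM (counts per 1000000 counts, TMM-scaled) correlated at 0.971 between the proximal and 0.977 between the distal libraries, and at 0.935 to 0.943 between regions, over the 15289 genes tested. The organoids were epithelial: 13 epithelial genes summed to 21781 and 21824 reads per 1000000 in proximal and 17921 and 16692 in distal libraries without scaling, where the regions did not overlap, and to 22610 and 21420 CPM in proximal and 23465 and 20774 CPM in distal libraries after TMM scaling, where they did. Without that scaling every log2 difference, proximal minus distal, would be 0.34 higher. Krt8, a keratin of simple epithelia, was at 5397 and 4838 CPM in proximal and 4753 and 3855 CPM in distal organoids. Markers of fibroblasts and muscle summed to 6.90 to 18.3, those of immune cells to 1.38 to 6.98 and those of endothelium, neurons and glia to 7.82 to 10.2 reads per 1000000, also without scaling. Col1a1, Col3a1, Dcn, Cd3e, Kdr and Sox10 were at 0 in all 4 libraries. None of the tested genes of these 4 lists was called by edgeR or by DESeq2, and 5, 0, 1 and 2 of them had an unadjusted p under 0.05. Over all genes 3984 of 15289 had an unadjusted p under 0.05 by edgeR.

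The regions differed in 929 of 15289 genes by the quasi-likelihood test of edgeR, which is 6.08% of those tested. Calls needed an adjusted p below 0.05 (Benjamini-Hochberg) together with a log2 fold change, taken as proximal minus distal, beyond 1 in either direction. Of the called genes, 440 (2.88%) were higher in proximal and 489 (3.2%) in distal organoids, and 874 were protein-coding. Differences of more than 16-fold were found for 99 genes in proximal and 112 in distal organoids, and 455 genes differed by 2- to 4-fold. The median log2 fold change was 0.07 over all genes tested, 2.05 over the called proximal and −2.01 over the called distal genes. For all 929 called genes, and for 55.9% of all genes tested, the libraries of the regions did not overlap. Leaving out 1 library could therefore hardly reverse the direction of a called gene. The number of calls was 786 without proximal replicate 1, 342 without proximal replicate 2, 525 without distal replicate 1 and 438 without distal replicate 2. Of the 929 genes, 232 were called in all 4 of these fits and 212 in none, and the direction was kept in all 4 fits for all 929. Of the calls 47.4% were higher in proximal organoids, against 35% without distal replicate 1 and 34.5% without distal replicate 2.

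**Figure D1:**
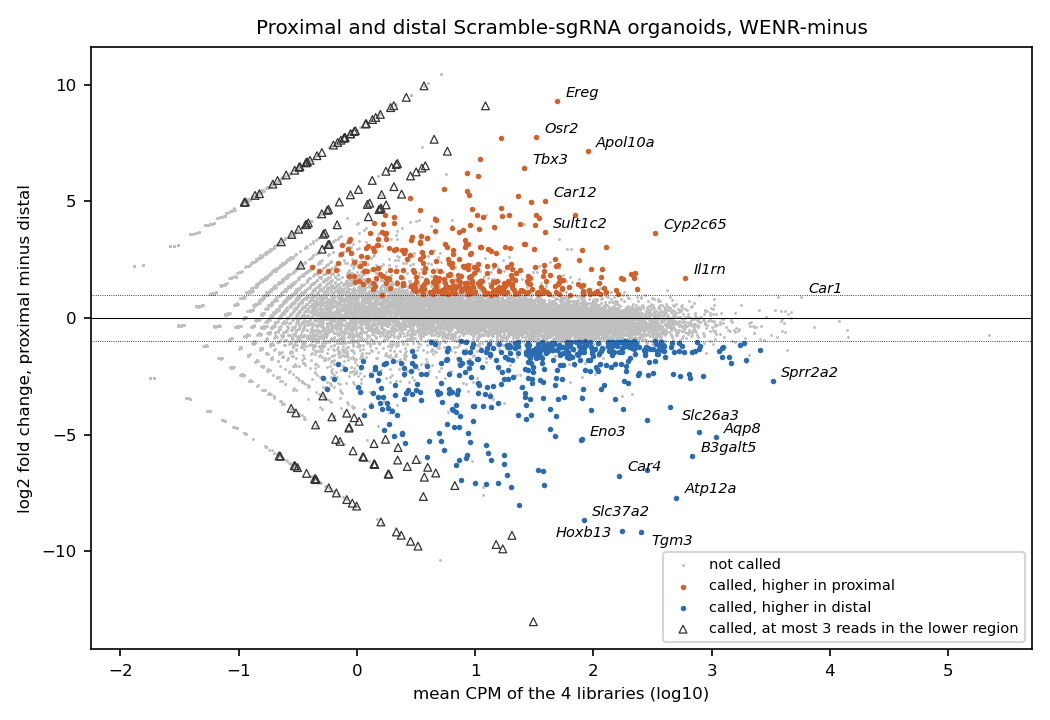
Log2 fold change (proximal minus distal) of each tested gene against its mean level in CPM (log10 axis) over the 4 Scramble-sgRNA WENR-minus libraries. Orange and blue points are genes called higher in proximal and in distal organoids, 440 and 489 when the triangles are included. Open triangles are called genes of either direction with at most 3 reads in the lower region, whose fitted value depends on the prior count. Dotted lines mark a log2 fold change of 1 in either direction.

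The Hox genes parted the regions in both directions. Among the middle and posterior Hox genes 11 of 18 listed genes were tested, 5 were higher in proximal and 5 in distal organoids (against 2.88 and 3.2% of all genes), with a median log2 fold change of 2.26. Hoxb13, the most posterior gene of the HoxB cluster (chromosome 11, 96194316 to 96197447, plus strand, GRCm38), was at 0.496 and 0.730 CPM in proximal and 363 and 340.1 CPM in distal organoids (log2 fold change −9.13, SE 0.35, adjusted p = 2.74e-07). Other genes of the cluster had the reverse order. Hoxb8 was at 18.8 and 22.6 CPM in proximal and 0.231 and 0.358 CPM in distal organoids (6.09, SE 0.50, adjusted p = 6.67e-05), and Hoxb7 at 17.4 and 15.7 against 0.231 and 0.502 CPM (5.46, SE 0.60, adjusted p = 0.000456). Hoxb6 was at 45.1 and 44.0 against 0.923 and 1.43 CPM (5.23, SE 0.52, adjusted p = 0.000246), so for these 3 genes both distal libraries lay far below both proximal ones. Hoxb9, the called HoxB gene of the list nearest to Hoxb13, had a smaller difference, with 62.1 and 64.5 CPM in proximal and 15.7 and 10.8 CPM in distal organoids (2.26, SE 0.21, adjusted p = 0.000137). Hoxb3, an anterior gene of the cluster, was at 16.2 and 17.8 CPM in proximal and 0.385 and 0.0717 CPM in distal organoids (6.20, SE 0.71, adjusted p = 0.000585).

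In the HoxA cluster the called genes were higher in distal organoids. Hoxa13 was at 1.86 and 4.17 CPM in proximal and 88.7 and 77.9 CPM in distal organoids (−4.77, SE 0.36, adjusted p = 3.77e-05) and Hoxa10 at 0.0620 and 0.208 against 17.2 and 22.8 CPM (−7.08, SE 0.56, adjusted p = 4.88e-05). Hoxa9 had 3 reads in both proximal libraries together and 12.1 and 14.7 CPM in the distal ones (ratio 158, 95% counting interval 53.9 to 764, adjusted p = 6.52e-06). The interval covers counting error only. Hoxa11 had no read in proximal organoids and 0.539 and 0.645 CPM in distal organoids, at least 3.48-fold higher with 3 reads taken as the level of each proximal library (adjusted p = 0.022), and was called in none of the 4 fits without 1 library (adjusted p from 0.0638 to 0.123). The HoxD cluster gave Hoxd8, at 8.92 and 6.10 CPM in proximal organoids with 2 distal reads (ratio 101, 95% counting interval 28 to 836, adjusted p = 0.00153). Called genes of the list other than Hoxa11 held in all 4 fits without 1 library. Among further Hox genes, listed after the values were seen, 13 of 21 were tested, and Hoxd4, Hoxb5, Hoxb3 and Hoxb4 were higher in proximal and Hoxa7 in distal organoids. Of these, Hoxb4 was not called without proximal replicate 2 (adjusted p = 0.1), distal replicate 1 (0.118) or distal replicate 2 (0.0633).

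**Figure D2:**
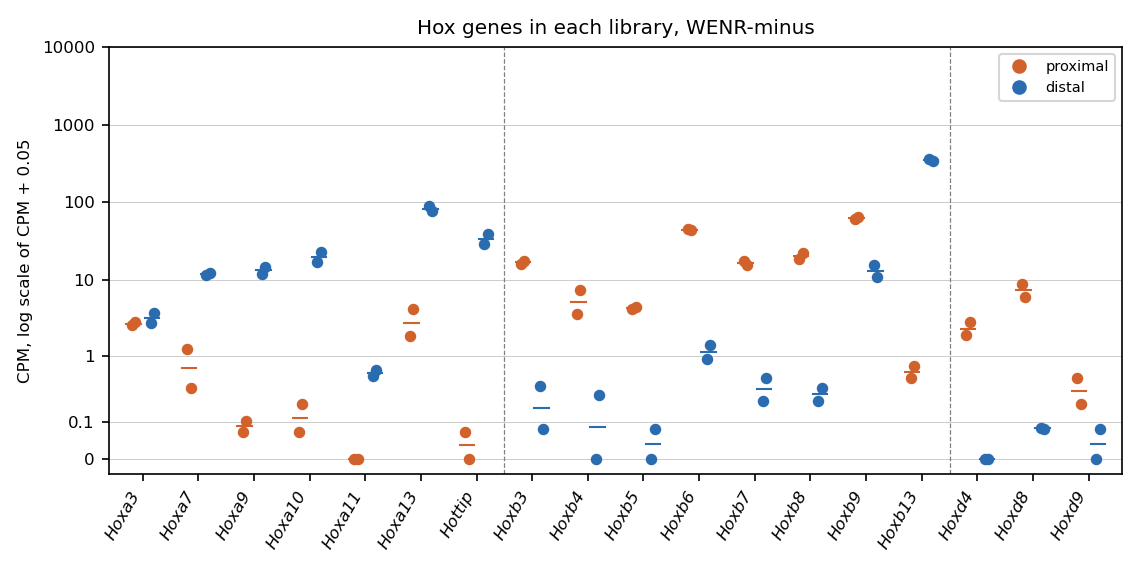
Level of Hox genes and of the long non-coding RNA Hottip in each Scramble-sgRNA WENR-minus library, on a log scale of CPM + 0.05. Each point is 1 library, short lines are means on that scale and dashed lines part the HoxA, HoxB and HoxD clusters; Hoxb13 and the called HoxA genes lie higher in distal organoids and the other called HoxB genes in proximal ones.

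Transcription factors outside the Hox clusters stood among the 12 genes with the highest log2 fold change. Osr2, a zinc finger factor of embryonic patterning (chromosome 15, 35296098 to 35303305, plus strand), was at 73.2 and 57.3 CPM in proximal and 0.0770 and 0.502 CPM in distal organoids (7.75, SE 0.51, adjusted p = 1.41e-05). Tbx3, a T-box factor, was at 60.4 and 42.2 against 0.616 and 0.573 CPM (6.41, SE 0.49, adjusted p = 3.94e-05). For either gene the regions were apart by far more than the libraries of 1 region. Ereg, which encodes epiregulin, a ligand of the EGF receptor (chromosome 5, 91074622 to 91093646, plus strand), was at 83.9 and 114 CPM in proximal and 0.0770 and 0.215 CPM in distal organoids (9.31, SE 1.13, adjusted p = 0.000805), and its distal level rests on 4 reads. Apol10a, of the apolipoprotein L family, was at 185 and 169 against 1.54 and 0.932 CPM (7.16, SE 0.36, adjusted p = 3.2e-06), and Malrd1, a gene tied to bile acid balance, at 23.2 and 20.5 against 0.231 and 0.143 CPM (6.82, SE 0.68, adjusted p = 0.000598). Ptpn5, a tyrosine phosphatase, was at 50.4 and 15.6 against 0.231 and 0.0717 CPM (7.72, SE 0.98, adjusted p = 0.00103), with proximal libraries that differed from each other. Pcsk5, a proprotein convertase, was at 36.5 and 12.3 CPM in proximal organoids with 1 distal read (ratio 658, 95% counting interval 118 to 26000, adjusted p = 0.00516). Pcsk5 was not called without distal replicate 2 (adjusted p = 0.0558). Pcdh19, a protocadherin, was at 11 and 12.2 CPM with 2 distal reads (ratio 156, 95% counting interval 43.2 to 1288, adjusted p = 0.00202).

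Among the 12 genes with the lowest log2 fold change were an enzyme and a structural protein of epithelial barriers. Tgm3, a transglutaminase that cross-links proteins (chromosome 2, 130012349 to 130050399, plus strand), was at 1.18 and 0.573 CPM in proximal and 530.2 and 485 CPM in distal organoids (−9.20, SE 0.65, adjusted p = 2.46e-05). Prr9, a proline-rich protein, had 1 read in proximal organoids and 31.2 and 29.0 CPM in distal ones (ratio 1062, 95% counting interval 191 to 41940, adjusted p = 0.000236). Slc37a2, a sugar phosphate exchanger, was at 0.558 and 0.261 against 220 and 112 CPM (−8.67, SE 0.79, adjusted p = 0.000133), and Neu3, a sialidase of the plasma membrane, at 0.310 and 0.208 against 41.1 and 38.1 CPM (−7.23, SE 0.80, adjusted p = 0.000462). Nxpe4 was at 0.868 and 0.208 against 89.2 and 61.6 CPM (−7.16, SE 0.58, adjusted p = 5.2e-05). In each of these genes both distal libraries stood clear of both proximal ones. Mptx1, a mucosal pentraxin, had 2 proximal reads and 42.7 and 39.1 distal CPM (ratio 722, 95% counting interval 199.9 to 5963, adjusted p = 0.00955). Mptx1 was not called without proximal replicate 1 (adjusted p = 0.0573) or proximal replicate 2 (0.0995). Slpi, an inhibitor of leukocyte proteases, was at 0.310 and 0.0521 against 55.2 and 38.4 CPM (−8.03, SE 1.80, adjusted p = 0.0179) and was called in none of the 4 fits without 1 library (adjusted p from 0.0508 to 0.155). Of the 24 genes with the highest and lowest log2 fold changes, 19 were called in all 4 fits without 1 library. In the WENR-plus libraries all 24 had the same sign of the region difference, and 17 had an adjusted p under 0.05.

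Promoters are shown for Hoxb8, from the proximal side, and Tgm3, from the distal side, because Cdx factors, whose member Cdx2 is the gene targeted in the series, bind a core motif that both hold. Of 21 promoters matched by symbol to genes with extreme or medium-dependent fold changes, Car4 was the only other with a match. Sequences are from RefSeq for GRCm38.p6, 250 bases before to 50 bases after the start site, 5′ to 3′ on the gene's strand, at chr11:96281655-96281954 (plus strand) and chr2:130012090-130012389 (plus strand). Capitals mark TTTATNG or its reverse complement CNATAAA, which overlaps a TATA box where it reads CTATAAA.
Hoxb8: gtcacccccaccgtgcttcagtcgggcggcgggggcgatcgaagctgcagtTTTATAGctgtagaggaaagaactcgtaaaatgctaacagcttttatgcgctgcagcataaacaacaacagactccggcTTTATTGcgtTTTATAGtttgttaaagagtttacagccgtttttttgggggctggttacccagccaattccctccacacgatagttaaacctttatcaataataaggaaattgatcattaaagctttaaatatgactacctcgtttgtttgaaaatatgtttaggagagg
Tgm3: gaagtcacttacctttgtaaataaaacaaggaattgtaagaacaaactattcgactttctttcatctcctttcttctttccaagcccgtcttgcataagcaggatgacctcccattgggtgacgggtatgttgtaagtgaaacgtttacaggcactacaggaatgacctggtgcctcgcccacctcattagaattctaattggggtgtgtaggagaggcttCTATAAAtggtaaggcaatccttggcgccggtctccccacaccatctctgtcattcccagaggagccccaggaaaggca
The Hoxb8 promoter holds 3 matches and that of Tgm3 holds 1, at −29 from the start site. The motif was in 7.22% of the promoters of 10533 tested genes matched by symbol, in 9.97% of 321 called higher in proximal and 9.76% of 369 called higher in distal organoids. It was in 10.5% of all 20443 promoters of the table. A match is a description of letters and not a bound site.

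Cdx2, a transcription factor of intestinal identity, was at 203 and 151 CPM in proximal and 112 and 110 CPM in distal organoids. The log2 difference (0.67, SE 0.20, adjusted p = 0.0548) did not pass the test, and libraries of the regions without overlap, as here, were found for 55.9% of all genes tested. Among gut transcription factors 19 of 22 listed genes were tested, 0 were higher in proximal and 1 in distal organoids (against 2.88 and 3.2% of all genes), with a median log2 fold change of −0.07, and DESeq2 called 2. Over all genes DESeq2 called 1175 of the 14311 genes it gave an adjusted p (8.21%). The gene called by edgeR was Klf4, a factor of post-mitotic surface and goblet cells, at 458 and 332 CPM in proximal and 1288 and 827 CPM in distal organoids (−1.42, SE 0.30, adjusted p = 0.0146). Klf4 was not called without proximal replicate 2 (adjusted p = 0.13) or distal replicate 1 (0.107). Hnf4a, a factor of enterocyte differentiation, was at 916 and 764 against 1360 and 1335 CPM (−0.68, SE 0.29, adjusted p = 0.16).

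Ion and water transport genes were called in both directions. Among them 34 of 36 listed genes were tested, 4 were higher in proximal and 14 in distal organoids (against 2.88 and 3.2% of all genes), with a median log2 fold change of −0.69. Their summed level was 14951 and 11309 CPM in proximal and 23342 and 20011 CPM in distal libraries. Of the 18 calls, 17, 11, 14 and 13 were kept without proximal replicate 1, proximal replicate 2, distal replicate 1 and distal replicate 2. Atp12a, the colonic proton and potassium pump (chromosome 14, 56365068 to 56388550, plus strand), was at 5.51 and 4.12 CPM in proximal and 1002 and 998 CPM in distal organoids (log2 fold change −7.70, SE 0.42, adjusted p = 4.85e-06). Car4, a carbonic anhydrase anchored on the apical membrane (chromosome 11, 84957786 to 84966044, plus strand), was at 4.46 and 1.67 against 401 and 257 CPM (−6.76, SE 0.54, adjusted p = 4.88e-05), and Slc26a3, the exchanger that takes up chloride for bicarbonate, at 55.0 and 45.9 against 1758 and 1238 CPM (−4.89, SE 0.34, adjusted p = 2.43e-05). In these 3 genes the lower distal library was many times above the higher proximal one. The sodium channel subunit Scnn1a was at 6.07 and 3.54 against 57.2 and 49.5 CPM (−3.48, SE 0.36, adjusted p = 0.000321), and Sgk1, a kinase that raises the activity of this channel, at 8.80 and 7.40 against 52.3 and 44.5 CPM (−2.58, SE 0.37, adjusted p = 0.00223). Scnn1b and Scnn1g, the other listed subunits of this channel, were not among the genes tested. Nr3c2 was at 164 and 153 against 319 and 280 CPM (−0.92, SE 0.26, adjusted p = 0.0489), below the fold threshold. Hsd11b2 was at 22.8 and 17.2 against 9.54 and 8.24 CPM (1.17, SE 0.68, adjusted p = 0.302) and was not called. The potassium channel Kcnk5 was at 14.1 and 13.5 against 39.5 and 41.2 CPM (−1.55, SE 0.22, adjusted p = 0.0021).

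Aqp8, a water channel, was at 104 and 16.9 CPM in proximal and 2634 and 1575 CPM in distal organoids (−5.12, SE 0.85, adjusted p = 0.00456). Aqp4, another member of this family, had no read in proximal organoids and 84.3 and 39.9 CPM in distal organoids, at least 366-fold higher with 3 reads taken as the level of each proximal library (adjusted p = 0.0119). Aqp4 was not called without proximal replicate 2 (adjusted p = 0.0864). Aqp1 was higher in proximal organoids, at 2.54 and 9.90 against 0.385 and 0.932 CPM (3.22, SE 0.73, adjusted p = 0.0186). Aqp1 was not called without proximal replicate 2 (adjusted p = 0.176), distal replicate 1 (0.131) or distal replicate 2 (0.0757). Of the abundant distal genes, cytosolic Car2 was at 786 and 526 against 1929 and 2310 CPM (−1.69, SE 0.29, adjusted p = 0.00539) and the sulfate transporter Slc26a2 at 612 and 592 against 2529 and 2125 CPM (−1.95, SE 0.34, adjusted p = 0.006). Car2 was not called without proximal replicate 2 (adjusted p = 0.064), and Slc26a2 was not called without proximal replicate 2 (adjusted p = 0.0644). The sodium pump subunit Atp1b1 was at 1087 and 1074 against 2289 and 2553 CPM (−1.16, SE 0.22, adjusted p = 0.00949). Atp1b1 was not called without proximal replicate 2 (adjusted p = 0.0739) or distal replicate 2 (0.0647). The sodium and proton exchanger Slc9a3 was at 110.1 and 39.3 against 559 and 248 CPM (−2.44, SE 0.69, adjusted p = 0.0471). Slc9a3 was not called without proximal replicate 2 (adjusted p = 0.273), distal replicate 1 (0.248) or distal replicate 2 (0.0708), nor with only the libraries compared (0.0658) or length-scaled counts (0.0677).

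On the proximal side Car12, a membrane carbonic anhydrase, was at 83.3 and 67.3 CPM in proximal and 2.38 and 2.29 CPM in distal organoids (5.00, SE 0.76, adjusted p = 0.0028), and the libraries of each region lay close together. The sodium bicarbonate cotransporter Slc4a4 was at 196 and 159 against 35.3 and 69.7 CPM (1.76, SE 0.40, adjusted p = 0.0202). Slc4a4 was not called without proximal replicate 1 (adjusted p = 0.0825), proximal replicate 2 (0.0699) or distal replicate 1 (0.138). Clca4b was at 148 and 107 against 31.3 and 15.1 CPM (2.46, SE 0.48, adjusted p = 0.00951), while its close paralog Clca4a had the reverse order, at 21.6 and 9.07 against 112 and 74.8 CPM (−2.61, SE 0.44, adjusted p = 0.0168). Both are uncertain because reads of near copies can be split between them. Clca4b was not called without distal replicate 2 (adjusted p = 0.088), and Clca4a was not called without distal replicate 1 (adjusted p = 0.0769) or distal replicate 2 (0.0507). Car1, an abundant cytosolic carbonic anhydrase, was at 8710 and 5952 CPM in proximal and 4846 and 3061 CPM in distal organoids (0.89, SE 0.35, adjusted p = 0.138), which did not pass the test.

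**Figure D3:**
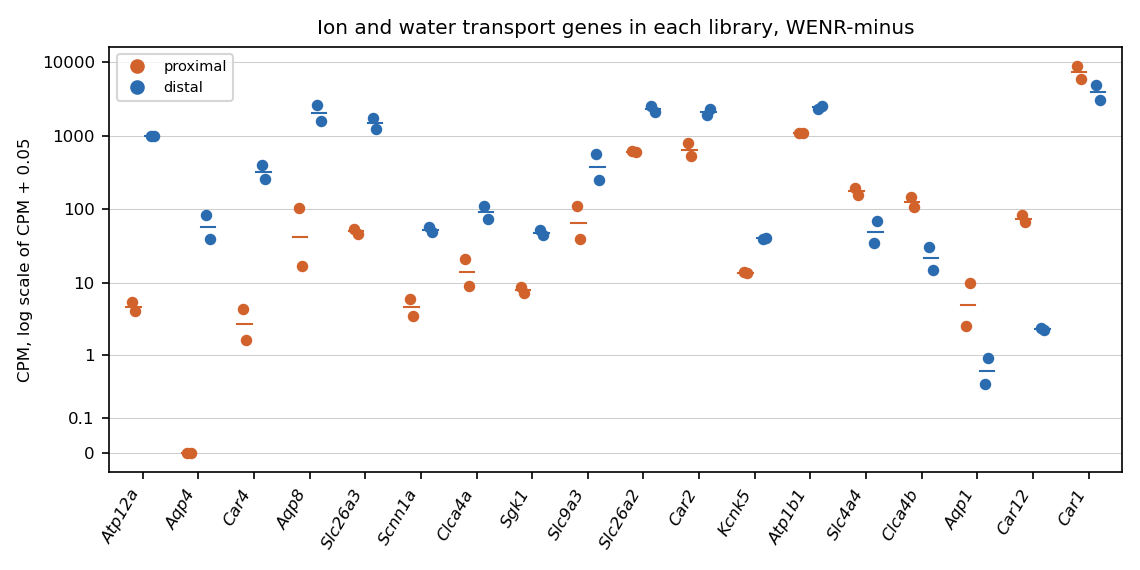
Level of called ion and water transport genes, and of Car1, in each Scramble-sgRNA WENR-minus library, on a log scale of CPM + 0.05. Each point is 1 library and short lines are means on that scale; the genes from Atp12a to Atp1b1 lie higher in distal and those from Slc4a4 to Car12 in proximal organoids, and Aqp4 is at 0 in both proximal libraries.

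Colonocyte genes, which share members with the transport genes, were called in part. Among them 26 of 26 listed genes were tested, 1 was higher in proximal and 5 in distal organoids (against 2.88 and 3.2% of all genes), with a median log2 fold change of −0.56, and their summed level was 36324 and 27148 CPM in proximal and 42969 and 32621 CPM in distal libraries, so the regions overlapped. Besides Car4, Aqp8, Slc26a3 and Clca4a, the acute phase gene Saa1 was higher in distal organoids, at 7.68 and 2.24 against 116 and 66.2 CPM (−4.21, SE 0.62, adjusted p = 0.00237). Slc51a, a subunit of the basolateral bile acid transporter, was at 7.13 and 7.30 CPM in proximal and 0.616 and 0.717 CPM in distal organoids (3.42, SE 0.77, adjusted p = 0.0246) and was called in none of the 4 fits without 1 library (adjusted p from 0.0734 to 0.134). Slc51b, the other subunit of this transporter, was not called, at 11.77 and 13.55 against 15.08 and 12.33 CPM (−0.11, SE 0.52, adjusted p = 0.931). Slc10a2, the apical bile acid transporter and a member of the small intestine list, was like Slc51a higher in proximal organoids, at 292 and 416 against 103 and 83.9 CPM (1.92, SE 0.38, adjusted p = 0.0105). Slc10a2 was not called without proximal replicate 2 (adjusted p = 0.0795), distal replicate 1 (0.0555) or distal replicate 2 (0.0958). Among small intestine genes 12 of 17 listed genes were tested, 1 was higher in proximal and 2 in distal organoids (against 2.88 and 3.2% of all genes), with a median log2 fold change of −0.51, and 8 of the tested genes had a negative sign. The calls toward distal organoids were Ada, an adenosine deaminase, at 9.11 and 10.2 against 94.3 and 28.5 CPM (−2.66, SE 0.48, adjusted p = 0.00704), and the apolipoprotein Apoa4, with 1 proximal read and 6.69 and 0.717 distal CPM (ratio 131, 95% counting interval 23.5 to 5171, adjusted p = 0.0147). Of the 3 calls, 2, 0, 1 and 2 were kept without proximal replicate 1, proximal replicate 2, distal replicate 1 and distal replicate 2. Lypd8, whose product keeps flagellated bacteria from the epithelium, was at 2853 and 1989 against 7857 and 4521 CPM (−1.35, SE 0.55, adjusted p = 0.142). It was called with the replicate number as a block (adjusted p = 0.0182), by DESeq2 (0.0389) and with no filter on low counts (4.81e-07).

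Among brush border hydrolases and lipid handling genes 24 of 29 listed genes were tested, 1 was higher in proximal and 5 in distal organoids (against 2.88 and 3.2% of all genes), with a median log2 fold change of −0.33, and 1, 1, 1 and 3 of 6 calls were kept without proximal replicate 1, proximal replicate 2, distal replicate 1 and distal replicate 2. Treh, which encodes trehalase, had 3 proximal reads and 11.7 and 4.01 distal CPM (ratio 92.5, 95% counting interval 31.6 to 448, adjusted p = 0.00237), a call that held in all 4 fits. Of the distal calls, Anpep was lost with only the libraries compared (adjusted p = 0.061) and with length-scaled counts (0.0526). Apoa1 was lost with the replicate block (adjusted p = 0.053) and with length-scaled counts (0.0677). Mgam, the maltase of the brush border, was at 360.5 and 361 against 384 and 517 CPM (−0.32, SE 0.48, adjusted p = 0.722) and did not pass the test.

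Among enteroendocrine genes, of hormone-producing cells, 23 of 25 listed genes were tested, 0 were higher in proximal and 7 in distal organoids (against 2.88 and 3.2% of all genes), with a median log2 fold change of −1.07, and 21 of the tested genes had a negative sign. Their summed level was 282 and 178 CPM in proximal and 657 and 460 CPM in distal libraries. Peptide YY (Pyy), a hormone of L cells, was at 9.54 and 1.35 CPM in proximal and 69.5 and 92.5 CPM in distal organoids (−3.91, SE 0.64, adjusted p = 0.0041), and the granule protein secretogranin II (Scg2) at 3.84 and 2.66 against 26.7 and 23.1 CPM (−2.94, SE 0.39, adjusted p = 0.00144). Both were called in all 4 fits without 1 library. Insl5, an insulin-like peptide of colonic L cells, was at 0.310 and 0.104 against 16.4 and 5.02 CPM (−5.68, SE 1.30, adjusted p = 0.0223). Insl5 was not called without proximal replicate 1 (adjusted p = 0.0731), proximal replicate 2 (0.169) or distal replicate 1 (0.105). Chgb, a granin, was at 114 and 57.9 against 240.2 and 161 CPM (−1.22, SE 0.35, adjusted p = 0.0494). Chgb was not called without proximal replicate 2 (adjusted p = 0.288), distal replicate 1 (0.256) or distal replicate 2 (0.0825). Chga was at 57.8 and 50.2 against 126 and 82.2 CPM (−0.95, SE 0.28, adjusted p = 0.0541). Nts, which encodes neurotensin and was chosen after its values were seen, was at 20.5 and 3.49 against 1.08 and 0.215 CPM (4.21, SE 1.14, adjusted p = 0.0538), a difference toward proximal organoids that did not pass the test. Nts was called as higher in proximal organoids with the replicate number as a block (adjusted p = 0.008), by DESeq2 (0.00997) and with no filter on low counts (3.17e-08). Of the 7 calls, 4, 2, 3 and 4 were kept without proximal replicate 1, proximal replicate 2, distal replicate 1 and distal replicate 2. By edgeR 12 of the genes had an unadjusted p under 0.05, against 3984 of 15289 over all genes. DESeq2 called 9, against 8.21% of all genes it gave an adjusted p.

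Among goblet cell genes 20 of 21 listed genes were tested, 0 were higher in proximal and 0 in distal organoids (against 2.88 and 3.2% of all genes), with a median log2 fold change of 0.33, so the count was near what the share over all genes gives for a list of this length. By edgeR 2 had an unadjusted p under 0.05, against 3984 of 15289 over all genes, and DESeq2 called 0. Clca1, a secreted protein of mucus, was at 975 and 1095 CPM in proximal and 4464 and 1754 CPM in distal organoids (−1.59, SE 0.99, adjusted p = 0.339), and the distal libraries were farther from each other than the lower of them was from the proximal ones. Clca1 was called with no filter on low counts (adjusted p = 1.78e-10). Fcgbp, another mucus protein, was at 2415 and 3228 against 2549 and 1935 CPM (0.33, SE 0.60, adjusted p = 0.774). Tuft cell genes summed to 0.239 to 0.743 reads per 1000000 over 14 genes, and Trpm5 was at 0 in all 4 libraries. Of the gastric list, Muc5ac, Gkn1 and Atp4b were at 0, and Vsig1, a junctional protein, was at 0.248 and 0.156 against 9.31 and 6.59 CPM (−5.27, SE 0.55, adjusted p = 0.000356).

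Few crypt bottom genes were called. Among them 21 of 22 listed genes were tested, 2 were higher in proximal and 0 in distal organoids (against 2.88 and 3.2% of all genes). The median log2 fold change was 0.32, and 15 of the tested genes had a positive sign. DESeq2 called 4, against 8.21% of all genes it gave an adjusted p. Cdca7, a gene of dividing progenitors, was at 26.4 and 36.6 CPM in proximal and 9.54 and 8.10 CPM in distal organoids (1.84, SE 0.26, adjusted p = 0.00215), and Nkd1, a Wnt feedback inhibitor, had 1 distal read (ratio 30.0, 95% counting interval 5.38 to 1184, adjusted p = 0.0266). Nkd1 was not called without proximal replicate 2 (adjusted p = 0.162), distal replicate 1 (0.0691) or distal replicate 2 (0.159). Among proliferation genes 32 of 32 listed genes were tested, 0 were higher in proximal and 1 in distal organoids (against 2.88 and 3.2% of all genes), with a median log2 fold change of 0.24. Their summed level was 578 and 1120 CPM in proximal and 699.8 and 1001 CPM in distal libraries, so the spread between libraries of 1 region exceeded the difference between regions. The called gene was Ccne2, which encodes a cyclin E, at 5.21 and 8.18 against 18.2 and 22.3 CPM (−1.59, SE 0.29, adjusted p = 0.0071). Ccne2 was not called without distal replicate 2 (adjusted p = 0.0525). Mki67 was at 105 and 203 against 141 and 245 CPM (−0.33, SE 0.39, adjusted p = 0.649). The cell cycle inhibitor Cdkn1a was at 98.1 and 88.8 CPM in proximal and 264 and 247 CPM in distal organoids (−1.45, SE 0.21, adjusted p = 0.0021).

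Signalling genes of the Wnt, Notch, BMP, EGF and Eph families had calls in both directions. Among them 43 of 53 listed genes were tested, 8 were higher in proximal and 3 in distal organoids (against 2.88 and 3.2% of all genes), with a median log2 fold change of 0.21. Besides Ereg, the Eph receptor Epha4 was higher in proximal organoids, at 25.8 and 40.1 CPM in proximal and 8.70 and 12.7 CPM in distal organoids (1.62, SE 0.26, adjusted p = 0.00386). Bmp2, a ligand of the differentiated surface, was higher in distal organoids, at 95.3 and 63.2 against 391 and 417 CPM (−2.35, SE 0.34, adjusted p = 0.00227). These 3 genes held in all 4 fits without 1 library. The ligand Bmp3 was at 185 and 163 against 89.0 and 55.3 CPM (1.27, SE 0.26, adjusted p = 0.0111). Bmp3 was not called without proximal replicate 1 (adjusted p = 0.0571), proximal replicate 2 (0.051) or distal replicate 2 (0.0962). The BMP target Id1 was at 20.4 and 11.3 against 47.5 and 33.2 CPM (−1.35, SE 0.29, adjusted p = 0.0144). Id1 was not called without proximal replicate 2 (adjusted p = 0.113) or distal replicate 1 (0.103). Other BMP genes of the list were called toward proximal organoids, Bmp7 (4.09, SE 0.79, adjusted p = 0.00954) and Smad6 (1.38, SE 0.34, adjusted p = 0.0284). Both calls were lost with only the libraries compared (0.0559 and 0.0998). Id2 (0.22, adjusted p = 0.739), Id3 (0.50, adjusted p = 0.404) and Smad7 (−0.86, adjusted p = 0.0282) were not called. The Notch ligand Jag1 was at 15.9 and 23.4 against 6.85 and 8.17 CPM (1.39, SE 0.29, adjusted p = 0.0141), and the receptor Notch2 at 14.3 and 16.8 against 3.46 and 4.66 CPM (1.93, SE 0.38, adjusted p = 0.01). Jag1 was not called without proximal replicate 2 (adjusted p = 0.122), distal replicate 1 (0.101) or distal replicate 2 (0.0689), and Notch2 was not called without proximal replicate 2 (adjusted p = 0.0656), distal replicate 1 (0.0839) or distal replicate 2 (0.0513). Of the 11 calls, 9, 3, 5 and 5 were kept without proximal replicate 1, proximal replicate 2, distal replicate 1 and distal replicate 2.

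Enzymes that handle foreign compounds differed in both directions, also within 1 family. Among cytochrome P450 and conjugation genes 39 of 43 listed genes were tested, 6 were higher in proximal and 8 in distal organoids (against 2.88 and 3.2% of all genes), with a median log2 fold change of −0.38. Cyp2c65 was at 600.3 and 622 CPM in proximal and 64.8 and 33.6 CPM in distal organoids (3.64, SE 0.38, adjusted p = 0.000356), and Cyp2c68 at 4.34 and 4.22 CPM in proximal and 147 and 163 CPM in distal organoids (−5.17, SE 0.44, adjusted p = 7.31e-05). Cyp2c66 was at 5.27 and 5.21 CPM in proximal organoids and had no read in distal ones, at least 23.5-fold higher with 3 reads taken as the level of each distal library (adjusted p = 0.00747). Cyp2c66 was not called without distal replicate 2 (adjusted p = 0.0505). Reads shared between these similar genes make the single values uncertain. The sulfotransferase Sult1c2 was at 88.6 and 55.2 against 7.93 and 3.30 CPM (3.68, SE 0.48, adjusted p = 0.00126), and the glutathione transferase Gsta4 at 304 and 224 against 71.3 and 88.7 CPM (1.72, SE 0.24, adjusted p = 0.0017). Cyp4f16 was higher in distal organoids, at 34.8 and 23.0 against 120.2 and 68.7 CPM (−1.71, SE 0.26, adjusted p = 0.003). Ugt2b5, a glucuronosyltransferase with near copies, was at 12.5 and 8.76 against 0.308 and 0.143 CPM (5.52, SE 0.88, adjusted p = 0.0104). Ugt2b5 was not called without proximal replicate 2 (adjusted p = 0.0512), distal replicate 1 (0.058) or distal replicate 2 (0.086). Of the 14 calls, 11, 6, 9 and 8 were kept without proximal replicate 1, proximal replicate 2, distal replicate 1 and distal replicate 2.

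Glycosyltransferases were called in both directions. Among mucin-type glycosylation genes 28 of 31 listed genes were tested, 1 was higher in proximal and 5 in distal organoids (against 2.88 and 3.2% of all genes), with a median log2 fold change of −0.33. B3galt5, which makes type 1 chains (chromosome 16, 96235801 to 96319859, plus strand), was at 29.8 and 14.5 CPM in proximal and 1554 and 1135 CPM in distal organoids (−5.92, SE 0.64, adjusted p = 0.00042). The sialyltransferase St3gal6 was at 12.2 and 11.2 against 181 and 179 CPM (−3.95, SE 0.39, adjusted p = 0.000236), and B3gnt7, which adds N-acetylglucosamine, at 0.682 and 0.886 against 12.2 and 7.31 CPM (−3.61, SE 0.58, adjusted p = 0.00383). These 3 calls held in all 4 fits without 1 library. St6galnac6, a sialyltransferase, was at 73.8 and 66.0 against 313 and 236 CPM (−1.97, SE 0.38, adjusted p = 0.00949). St6galnac6 was not called without proximal replicate 2 (adjusted p = 0.0859) or distal replicate 1 (0.0556). B4galnt1, which starts complex gangliosides, was higher in proximal organoids, at 35.1 and 55.7 against 1.15 and 4.44 CPM (4.01, SE 0.91, adjusted p = 0.0186). B4galnt1 was not called without proximal replicate 2 (adjusted p = 0.0968), distal replicate 1 (0.128) or distal replicate 2 (0.0572). Fut9, a fucosyltransferase, had 3 proximal reads and 1.46 and 2.15 distal CPM (ratio 21.3, 95% counting interval 7.28 to 103, adjusted p = 0.0389). It was called in none of the 4 fits without 1 library (adjusted p from 0.0512 to 0.23), nor with only the libraries compared (0.058). Of the 6 calls, 5, 3, 3 and 4 were kept in these fits without proximal replicate 1, proximal replicate 2, distal replicate 1 and distal replicate 2.

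Among host defence genes 25 of 36 listed genes were tested, 1 was higher in proximal and 3 in distal organoids (against 2.88 and 3.2% of all genes), with a median log2 fold change of −0.18, and DESeq2, which called 8.21% of the genes it gave an adjusted p, called 8. Of the 4 calls by edgeR, 2, 1, 2 and 3 were kept without proximal replicate 1, proximal replicate 2, distal replicate 1 and distal replicate 2. The proximal call was Saa3 (4.03, SE 0.98, adjusted p = 0.0444), which was lost with the replicate block (0.0576), by DESeq2 (0.0869) and with length-scaled counts (0.0604). Of the distal calls, Sprr2a1 was lost with only the libraries compared (0.05515). Pigr, the receptor for polymeric immunoglobulin, was at 937 and 1197 CPM in proximal and 2336 and 2322 CPM in distal organoids (−1.13, SE 0.46, adjusted p = 0.148), and was called by DESeq2 (adjusted p = 0.0495), with only the libraries compared (0.0341) and with no filter on low counts (2.19e-05). Among claudins and adhesion genes 23 of 26 listed genes were tested, 1 was higher in proximal and 0 in distal organoids (against 2.88 and 3.2% of all genes), with a median log2 fold change of −0.07, and the call was the collagen-binding integrin Itga2. Among fetal, wound and stress genes 30 of 32 listed genes were tested, 1 was higher in proximal and 1 in distal organoids (against 2.88 and 3.2% of all genes), with a median log2 fold change of 0.40, and DESeq2 called 4. Il1rn, the antagonist of the interleukin 1 receptor, was the proximal call, at 761 and 1058 against 328 and 233 CPM (1.70, SE 0.32, adjusted p = 0.0081). Il1rn was not called without proximal replicate 2 (adjusted p = 0.0631) or distal replicate 2 (0.0835).

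**Figure D4:**
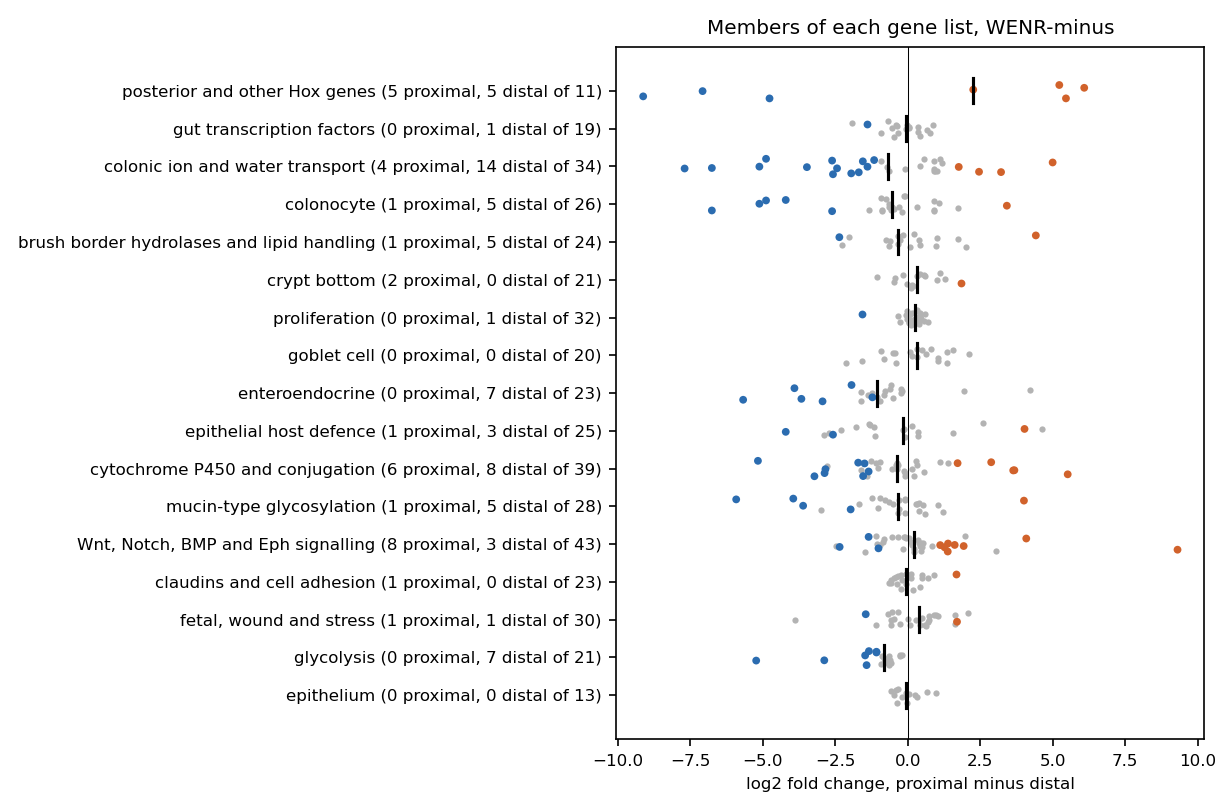
Log2 fold change (proximal minus distal) of the tested members of each gene list in Scramble-sgRNA WENR-minus organoids. Grey points were not called, orange points were called higher in proximal and blue points higher in distal organoids, and black bars are medians over all tested members; members with at most 3 reads in the lower region are in the median but not drawn, and the glycolysis genes were listed after the values were seen.

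Levels were also compared per length, as TPM (transcripts per 1000000 transcripts). Of the called protein-coding genes, large differences in mean TPM toward proximal organoids were those of Il1rn (1052 and 1603 against 370.2 and 297 TPM), S100a11 (1561 and 1222 against 524 and 494 TPM) and Cyp2c65 (430.5 and 494 against 40.6 and 22.4 TPM). Toward distal organoids they were those of Sprr2a2 (1289 and 2996 against 15380 and 7183 TPM), AA467197 (765 and 342 against 3043 and 2295 TPM) and Aqp8 (114 and 22.4 against 2526 and 1646 TPM). Sprr2a2 belongs to a family of near copies of small proline-rich barrier proteins, among which reads can be split, and it was not called without proximal replicate 1 (adjusted p = 0.128), proximal replicate 2 (0.0791) or distal replicate 1 (0.166). Bnip3, a mitophagy receptor, was at 192 and 112 CPM in proximal and 768 and 822 CPM in distal organoids (−2.39, SE 0.27, adjusted p = 0.000557). Of the 20 genes with the largest TPM differences, 5 were called in all 4 fits without 1 library: Cyp2c65, Gsta4, Akr1c19, Aqp8 and Bnip3. In WENR-plus medium 18 of the 20 had the same sign, and 2 had an adjusted p under 0.05.

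The region difference was then set against that in WENR-plus medium by a test of the difference itself. It depended on the medium in 11 of 15289 genes (0.0719%) by edgeR, with 1503 at an unadjusted p under 0.05. With the replicate number as a block 20 genes were called, and DESeq2 called 145. The count was 2, 0, 4 and 5 without WENR-minus proximal replicate 1, proximal replicate 2, distal replicate 1 and distal replicate 2, and 1, 0, 17 and 5 without the same replicates in WENR-plus. Where edgeR called 0, 1038 and 1253 genes had an unadjusted p under 0.05.

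Of these genes, Car4 was higher in distal WENR-minus organoids than in the other 3 Scramble-sgRNA groups. In WENR-plus medium it was at 1.34 and 1.54 CPM in proximal and 2.15 and 0.914 CPM in distal organoids (log2 fold change −0.11, SE 0.55, adjusted p = 0.969), and the difference between the media was −6.65, SE 0.74, adjusted p = 0.0109. Atp12a was at 4.59 and 4.02 CPM in proximal and 89.4 and 45.1 CPM in distal organoids in WENR-plus, a region difference in the same direction (−3.96, SE 0.36, adjusted p = 0.000213) and smaller than in WENR-minus medium (difference −3.74, SE 0.48, adjusted p = 0.0222). Rnf152, a ubiquitin ligase of lysosomes, was at 0.248 and 0.104 CPM in proximal and 26.2 and 23.2 CPM in distal organoids in WENR-minus and at 0.430 and 0.533 CPM in proximal and 1.20 and 0.807 CPM in distal organoids in WENR-plus medium (difference −6.05, SE 0.62, adjusted p = 0.0109). Usp2, a deubiquitinase, was at 0.806 and 0.730 CPM in proximal and 12.8 and 15.3 CPM in distal organoids in WENR-minus and at 2.68 and 4.79 CPM in proximal and 2.60 and 1.18 CPM in distal organoids in WENR-plus medium (difference −5.15, SE 0.58, adjusted p = 0.0109). In these 4 genes distal WENR-minus organoids stood above the other 3 Scramble-sgRNA groups.

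Akr1c19, an aldo-keto reductase, was at 199 and 181 CPM in proximal and 46.0 and 44.0 CPM in distal organoids in WENR-minus and at 19.2 and 19 CPM in proximal and 42.9 and 35.4 CPM in distal organoids in WENR-plus medium (difference 3.11, SE 0.44, adjusted p = 0.0387). Itga2 was at 262 and 277 CPM in proximal and 84.6 and 83.6 CPM in distal organoids in WENR-minus and at 149 and 154 CPM in proximal and 226 and 214 CPM in distal organoids in WENR-plus medium (difference 2.22, SE 0.33, adjusted p = 0.0454), and the region difference in WENR-plus medium, toward distal organoids, did not pass the test on its own (−0.54, SE 0.23, adjusted p = 0.32). Arid5b, a chromatin factor, was at 55.8 and 48.7 CPM in proximal and 10.4 and 12.4 CPM in distal organoids in WENR-minus and at 88.2 and 99.6 CPM in proximal and 77.8 and 101 CPM in distal organoids in WENR-plus medium (difference 2.12, SE 0.32, adjusted p = 0.0454), with distal WENR-minus organoids below the other 3 of these groups. Over the 8 fits without 1 of the libraries, the adjusted p of the difference ran from 0.0118 to 0.083 for Car4, 0.00773 to 0.083 for Rnf152, 0.00757 to 0.0909 for Usp2, 0.00757 to 0.128 for Atp12a and 0.0476 to 0.27 for Arid5b. It ran from 0.0597 to 0.226 for Akr1c19 and 0.0743 to 0.263 for Itga2, which were thus called in none of these 8 fits. With only the libraries compared, the call of the difference was lost for Car4, Atp12a, Usp2 and Arid5b (adjusted p = 0.071 for each). It was also lost for Usp2 with length-scaled counts (adjusted p = 0.0603), for Arid5b with length-scaled counts (0.116) and RLE size factors (0.0611), and for Itga2 with RLE size factors (0.0542).

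**Figure D5:**
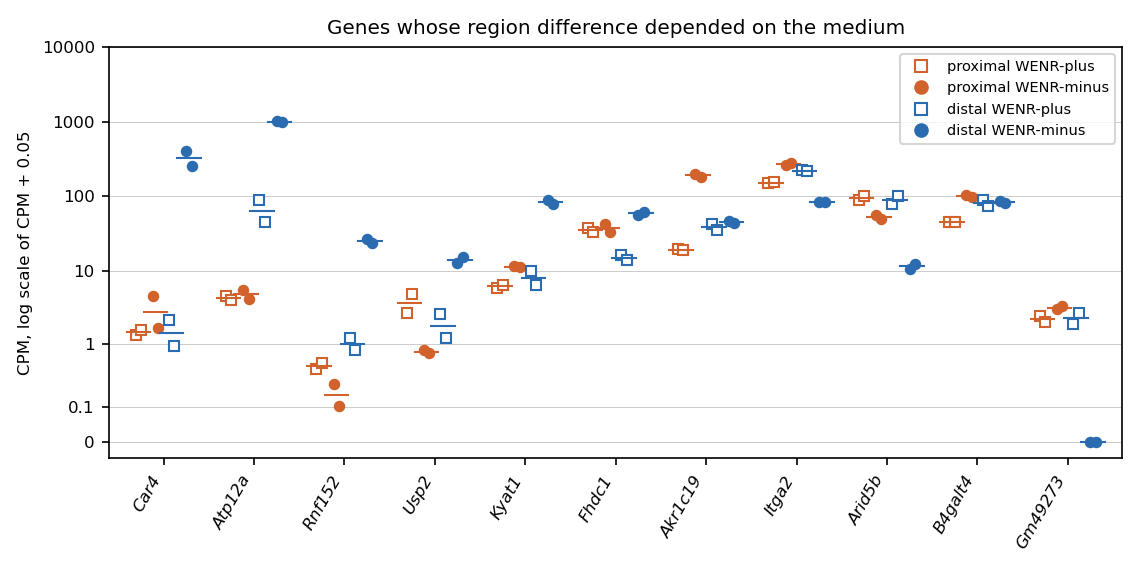
Level of the 11 genes whose region difference depended on the medium, in each Scramble-sgRNA library of both media, on a log scale of CPM + 0.05. Open squares are WENR-plus and filled circles WENR-minus libraries, orange for proximal and blue for distal, and short lines are means on that scale; Car4, Atp12a, Rnf152 and Usp2 are highest in distal WENR-minus organoids among these libraries.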

How the data were processed

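RNA of whole organoids was sequenced from 16 libraries. The authors quantified transcripts with Salmon (1.1.0) on mouse transcripts (mm10) and deposited, for each sample, estimated counts and TPM (transcripts per 1000000, scaled by transcript length) per transcript. Estimated counts were summed to 54123 genes by a GENCODE annotation of GRCm38, which held 139864 of 140748 transcripts. The 884 others took 0.257 to 0.509% of the counts and were left out. The sums were rounded and tested in R (4.3.3) with edgeR (4.0.16), with a coefficient for each of 8 groups, filterByExpr, TMM scaling and the quasi-likelihood test (8 residual degrees of freedom from the groups). The named genes were the 12 called protein-coding genes with the highest and the 12 with the lowest log2 fold change at 10 CPM or more in the higher group, the 10 in each direction with the largest difference in mean TPM, the called and the most abundant uncalled members of the lists, 3 long non-coding RNAs in each direction at 5 CPM or more, the genes that depended on the medium, and Cdx2. Members and lists were chosen with earlier results of these data known, and the glycolysis and further Hox lists after the values were seen. Where the lower region had no read, 3 reads per library stood for its level, and with 1 to 3 reads the ratio has an exact Poisson interval. Replicates came from different mice, and the replicate number was taken to mark the mouse. Deviations of same-numbered libraries from their group means correlated at 0.05 between the regions in WENR-minus, 0.09 in WENR-plus, 0.41 between media in proximal and 0.28 in distal organoids. With 2 libraries for each group the p-values measure the spread within groups, estimated over all 16 libraries, those of Cdx2-sgRNA organoids included. Alternatives were a replicate block, DESeq2 (1.42.0), its size factors, other filters, only the libraries compared, length-scaled counts, no fold threshold and each library left out. The method was tested on simulated data. Some called genes are not reported here by name.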

Additional observations from a re-analysis of the deposited data

Results flagged for a closer look

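The region difference (proximal minus distal, log2) differed between WENR-minus and WENR-plus medium by the interaction test of edgeR in 11 genes. Toward distal organoids in WENR-minus medium this difference of differences was −6.65 for Car4 (adjusted p = 0.0109), −6.05 for Rnf152, −5.15 for Usp2 and −3.74 for Atp12a. It was −2.50 for Kyat1, a kynurenine aminotransferase, which was at 11.3 and 11.1 CPM in proximal and 87.4 and 78.9 CPM in distal organoids in WENR-minus and at 5.88 and 6.45 CPM in proximal and 9.76 and 6.40 CPM in distal organoids in WENR-plus medium. It was −1.87 for Fhdc1, which was at 42.4 and 33.3 CPM in proximal and 55.2 and 62.1 CPM in distal organoids in WENR-minus and at 37.2 and 33.4 CPM in proximal and 16.2 and 13.7 CPM in distal organoids in WENR-plus medium. Toward proximal organoids it was 3.11 for Akr1c19, 2.22 for Itga2, 2.12 for Arid5b and 1.14 for B4galt4, a galactosyltransferase, which was at 103 and 98.8 CPM in proximal and 86.2 and 81.1 CPM in distal organoids in WENR-minus and at 45.2 and 44.5 CPM in proximal and 89.8 and 74.4 CPM in distal organoids in WENR-plus medium. For Gm49273 the fitted value was 8.77, which depends on the prior count because no read was found in distal WENR-minus organoids. Its level was 3.04 and 3.28 CPM in proximal WENR-minus organoids, at least 14.2-fold higher with 3 reads taken as the level of each distal library. With only the libraries compared, the adjusted p was 0.071 for Kyat1 and Gm49273, 0.0776 for Fhdc1 and 0.137 for B4galt4. For B4galt4 it was 0.0611 with RLE size factors and 0.0981 with length-scaled counts. Over the fits without 1 library the adjusted p ran from 0.00773 to 0.0993 for Kyat1, 0.0597 to 0.212 for Fhdc1, 0.0746 to 0.274 for B4galt4 and 0.0411 to 0.145 for Gm49273.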

How the results depend on the processing

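The count of 929 genes became 1619 with no filter on low counts (783 higher in proximal and 836 in distal organoids), 585 with at least 10 counts in every library (288 and 297), and 1521 with no fold threshold, of which 877 were higher in distal organoids. Against 440 genes higher in proximal and 489 in distal organoids, the replicate block gave 1070 (508 and 562), DESeq2 1175 (494 and 681), RLE size factors 964 (402 and 562), only the libraries compared 830 (351 and 479) and length-scaled counts 760 (332 and 428). Leaving out 1 library gave 342 to 786 calls, 151 to 326 of them higher in proximal and 188 to 460 in distal organoids. The genes that depended on the medium numbered 20 with the replicate block, 145 with DESeq2, 454 with no filter, 3 with only the libraries compared, and 0 to 17 without 1 library. Mki67, which was not called, reversed its sign without proximal replicate 1 (0.0215) and without distal replicate 2 (0.130), and ranged from −0.88 to 0.130 when 1 library was left out. With only the libraries compared, adjusted p was 0.0723 for Aqp1, 0.0726 for Id1, 0.058 for Fut9 and 0.102 for Chgb, and with length-scaled counts 0.0599 for Chgb and 0.101 for Nkd1. Chga was called by DESeq2 (0.00892) and with RLE size factors (0.0442). The causes were not tested. Low levels limit the fold changes of genes with few reads in 1 region, and 57 called genes had no read in the lower region.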

Other observations

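Of 23 glycolysis genes, listed after the values were seen, 21 were tested and 7 were called, each higher in distal organoids (against 3.2% of all genes), with a median log2 fold change of −0.81 (0.07 over all genes). Their summed level was 13394 and 10117 CPM in proximal and 20752 and 21762 CPM in distal libraries. Eno3, an enolase, was at 5.02 and 3.18 CPM in proximal and 212 and 95.2 CPM in distal organoids (−5.23, SE 0.48, adjusted p = 0.000133). Pgam1, a phosphoglycerate mutase, was at 446 and 431 against 945 and 1282 CPM (−1.34, SE 0.18, adjusted p = 0.00142), and Pfkfb3, a regulator of glycolytic flux, at 50.8 and 33.1 against 123 and 109 CPM (−1.47, SE 0.25, adjusted p = 0.00519). These 3 were called in all 4 fits without 1 library. Gapdh was at 3503 and 1697 against 4441 and 4673 CPM (−0.81, SE 0.39, adjusted p = 0.215) and Ldha at 1929 and 1635 against 2831 and 2771 CPM (−0.65, SE 0.21, adjusted p = 0.0717). Of the 7 calls, 5, 3, 5 and 4 were kept without proximal replicate 1, proximal replicate 2, distal replicate 1 and distal replicate 2.

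Long non-coding RNAs of the HoxA cluster followed its posterior genes. Hottip had 1 read in proximal organoids and 29.6 and 38.9 CPM in distal ones (ratio 1209, 95% counting interval 217 to 47770, adjusted p = 4.85e-06). Hoxa11os, which is antisense to Hoxa11, was at 0.124 and 0.365 CPM in proximal and 13.9 and 19.2 CPM in distal organoids (−6.0, SE 0.51, adjusted p = 7.97e-05). Both were called in all 4 fits without 1 library. Gm41442 was at 0.744 and 0.365 against 8.08 and 4.73 CPM (−3.53, SE 0.57, adjusted p = 0.00386) and was not called without proximal replicate 2 (adjusted p = 0.0524). On the proximal side, Grin1os was at 7.25 and 6.72 against 1.62 and 1.86 CPM (2.00, SE 0.39, adjusted p = 0.0101), A730017L22Rik at 7.93 and 11.2 against 3.15 and 2.08 CPM (1.87, SE 0.33, adjusted p = 0.006) and Gm20559 at 15.6 and 18.5 against 5.39 and 5.88 CPM (1.60, SE 0.28, adjusted p = 0.006). Grin1os was not called without proximal replicate 2 (adjusted p = 0.0551), distal replicate 1 (0.0769) or distal replicate 2 (0.0659), A730017L22Rik was not called without proximal replicate 2 (adjusted p = 0.0564) or distal replicate 2 (0.0631) and Gm20559 was not called without distal replicate 1 (adjusted p = 0.0507).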
